A study of Mus musculus with 42 samples.

Results

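Rab GTPases are the largest family of small GTPases that direct membrane traffic. Each Rab cycles between a GDP-bound form in the cytosol and a GTP-bound form on one kind of membrane: exchange factors (GEFs) load it with GTP, activating proteins (GAPs) make it hydrolyse the GTP, and the GTP-bound form recruits effectors that move, tether or fuse vesicles. In macrophages they are known for carrying phagosomes through early and late endosomal stages to lysosomes, and for the recycling of receptors and the release of granules and cytokines. The genes described here are those of the count table whose symbol is Rab followed by a number and at most 1 letter. The rule found 48 genes of 11160, all annotated as protein coding, and used no measured value. In the mouse annotation 59 symbols fit the rule, and the other 11 (Rab17, Rab25, Rab26, Rab27b, Rab30, Rab39b, Rab3b, Rab3c, Rab40b, Rab42 and Rab9b) were not analysed here. Rab1 is the older symbol of Rab1a.

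RNA was sequenced from bone marrow-derived mouse macrophages, made with the growth factor M-CSF over 6 days, detached, plated again and treated the next day. Cells with the genotype MS4A4A KO were set beside WT cells. Ms4a4a encodes a tetraspan membrane protein of macrophages, and the labels do not give strain, age or the part of the gene removed. For each genotype there were cells given 1 µM dexamethasone (Dex), a synthetic glucocorticoid, for 2, 8 or 24 h, cells given vehicle for the same times, and untreated cells at baseline, 14 groups of 3 libraries. The labels do not say whether replicates were separate cultures or mice, so p-values measure the spread between these libraries, which may be technical. All values are bulk values, in which fewer cells of a type and less RNA per cell cannot be told apart.

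The 42 libraries held 10140200 to 33528400 counts each (median 27998700), of which the 48 Rab genes took 0.532 to 0.615%. Ms4a4a was lower but still measurable in KO libraries: it averaged 46.7 ± 2.69 CPM (counts scaled to a common library total) in untreated KO cells and 89.1 ± 6.36 CPM in untreated WT cells (SD, n = 3 each). Fkbp5, an induced target of the glucocorticoid receptor, was higher with Dex at 2, 8 and 24 h by 4.29, 6.18 and 5.09 on the log2 scale. The library labelled KO vehicle 24 h replicate 2 stood between vehicle and Dex libraries, with 69.9 CPM of Fkbp5 against 14.2 and 16.9 CPM in the other KO vehicle libraries of 24 h, so the 24 h results that rest on it are given again without it after the vehicle comparison. The 10 macrophage markers were all detected, summing to 18160 to 42540 CPM per library. Among other cell types, fibroblast markers (4 of 8 in the table, among them Col1a1) summed to 8.98 to 41.8 CPM with Dex at 24 h and 4.95 to 13.98 CPM with vehicle. Dendritic cell markers (4 of 7) summed to 5.11 to 7.23 CPM with Dex at 24 h and 11.1 to 17.3 CPM with vehicle. The corresponding sums were 2.24 to 6.98 against 9.74 to 16.4 CPM for lymphocyte markers (2 of 11), and 9.88 to 33.4 against 16.1 to 52.6 CPM for neutrophil markers (4 of 8). Kit, the only 1 of 6 mast cell markers in the table, was at 0.482 to 2.26 CPM with Dex at 24 h and 3.22 to 6.87 CPM with vehicle. The part of these cells in the Rab changes was not tested.

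The promoters of 4 genes whose changes recur below are shown because Dex acts through the glucocorticoid receptor, a transcription factor whose classical binding element is an inverted repeat of the half-site AGAACA. Each runs 5′ to 3′ on the gene's strand, from 250 bases before to 30 after an annotated start site (RefSeq sequence, GRCm38.p6), with capitals marking AGAACA or its reverse complement TGTTCT. Rab15, on chromosome 12, has 4 annotated start sites, of which the most upstream (chr12:76822495-76822774, minus strand) and the most downstream (chr12:76813827-76814106, minus strand) are given. Rab33a is on the X chromosome (chrX:48519035-48519314, plus strand), Rab32 on chromosome 10 (chr10:10558178-10558457, minus strand) and Rab5c on chromosome 11 (chr11:100738186-100738465, minus strand).
Rab15 upstream start: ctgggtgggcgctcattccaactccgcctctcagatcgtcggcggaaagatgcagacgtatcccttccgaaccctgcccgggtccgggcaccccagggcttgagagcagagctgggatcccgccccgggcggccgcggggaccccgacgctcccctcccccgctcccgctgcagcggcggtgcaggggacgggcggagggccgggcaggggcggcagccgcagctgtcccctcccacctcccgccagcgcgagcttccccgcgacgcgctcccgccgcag
Rab15 downstream start: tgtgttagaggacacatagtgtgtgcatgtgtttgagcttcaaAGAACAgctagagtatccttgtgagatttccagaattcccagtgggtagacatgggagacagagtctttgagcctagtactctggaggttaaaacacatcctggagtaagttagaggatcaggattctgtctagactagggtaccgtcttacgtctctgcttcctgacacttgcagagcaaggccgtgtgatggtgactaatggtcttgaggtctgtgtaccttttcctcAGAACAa
Rab33a: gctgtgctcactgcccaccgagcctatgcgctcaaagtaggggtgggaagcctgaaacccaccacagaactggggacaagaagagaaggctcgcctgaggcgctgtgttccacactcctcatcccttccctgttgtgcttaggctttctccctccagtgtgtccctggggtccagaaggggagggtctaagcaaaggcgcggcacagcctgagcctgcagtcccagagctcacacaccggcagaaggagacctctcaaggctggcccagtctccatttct
Rab32: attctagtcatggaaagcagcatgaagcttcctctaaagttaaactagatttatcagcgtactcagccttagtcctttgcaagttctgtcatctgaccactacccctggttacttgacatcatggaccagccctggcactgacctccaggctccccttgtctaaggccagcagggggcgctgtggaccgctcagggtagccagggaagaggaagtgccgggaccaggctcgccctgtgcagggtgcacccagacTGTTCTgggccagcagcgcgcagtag
Rab5c: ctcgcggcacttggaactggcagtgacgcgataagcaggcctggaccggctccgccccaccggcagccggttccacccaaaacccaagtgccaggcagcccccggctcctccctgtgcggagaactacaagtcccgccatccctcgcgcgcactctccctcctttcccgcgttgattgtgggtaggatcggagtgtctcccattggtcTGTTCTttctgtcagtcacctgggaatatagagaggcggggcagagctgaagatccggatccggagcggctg

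The downstream Rab15 window held the half-site at 2 places, the Rab32 and Rab5c windows at 1 place each, and the upstream Rab15 window and the Rab33a window at none. Windows of Rab20, Rab27a, Rab31 and Rab3d, which also had called Dex changes of at least 0.5 (log2), held none and are not printed. The genes shown therefore hold the half-site more often than the family does. Promoters of 40 of the 48 genes were in the table, as 52 windows of 300 bases. The full element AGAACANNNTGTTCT was in none of the 52 and in 0.00913% of all 32851 windows searched on both strands, and the looser GNACANNNTGTNC in none of the 52 and 0.475% of all. The half-site, which is also a part of the full element, was in 7 of the 52 windows, of Rab11a, Rab13, Rab15, Rab28, Rab32 and Rab5c, and in 19.0% of all. The element CACGTG was in 6 of the 52, of Rab20, Rab21, Rab23, Rab24, Rab27a and Rab5a, and in 7.15% of all. These matches describe letters in short windows and are not sites of binding.

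In untreated cells, 5 genes made up 42.3 to 43.7% of the Rab total when counts were scaled per kb of the longest coding transcript. Rab7, which drives fusion of late endosomes with lysosomes, was the highest at 249.1 ± 9.45 CPM per kb (SD, n = 6, both genotypes). Rab8b, of plasma membrane protrusions, followed at 158.6 ± 17.9, Rab1, of transport from endoplasmic reticulum to Golgi, at 153.4 ± 4.71, Rab14, of phagosomes and early endosomes, at 151.1 ± 4.998, and Rab11a, of recycling endosomes, at 109.1 ± 5.36 CPM per kb. The lowest were Rab33a, a Golgi-associated Rab also tied to autophagy, at 0.258 ± 0.153 CPM per kb, and Rab44, a large Rab with an EF-hand domain described in mouse osteoclasts and mast cells, at 0.145 ± 0.0633 CPM per kb. The levels per kb spanned 1717-fold, and their order depends on the transcript length used. Without that scaling, over all 42 libraries, Rab8b averaged 738.4 CPM and Rab7 560.6 CPM, and Rab44 averaged 1.41 CPM and Rab33a 0.874 CPM. Which transcripts the cells held was not tested. Placed in order of the level per kb, only 10 of the 47 neighbouring pairs had ranges over the 6 libraries that did not overlap. Rab7 stood apart from Rab8b and Rab14 from Rab11a, whereas Rab8b, Rab1 and Rab14 overlapped.

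**Figure D1:**
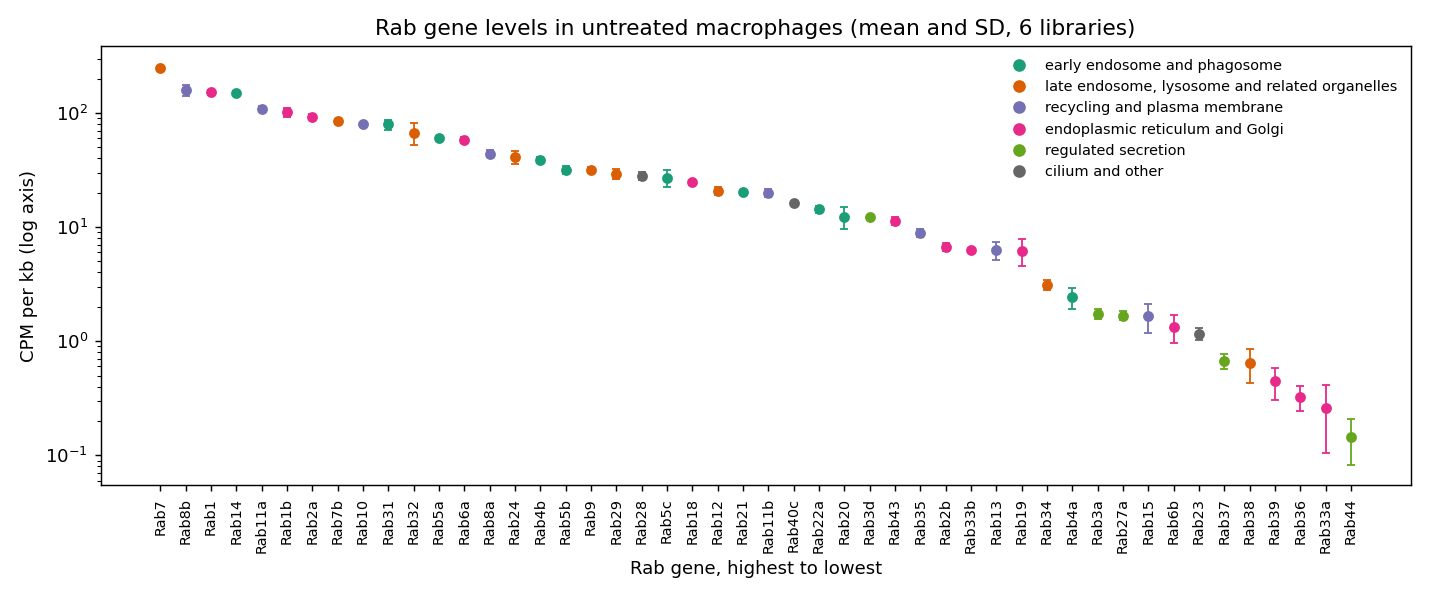
Level of each of the 48 Rab genes in untreated macrophages, in CPM per kb of the longest coding transcript on a log axis, ordered from highest to lowest. Points are means over 6 libraries, bars are SDs and colours give the known site of action; Rab7 is highest at 249.1 CPM per kb and Rab44 lowest at 0.145.

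The summed level of the family lay between 5593 and 6068 CPM in the means of the 14 groups. The 48 genes summed to 6059 ± 134.5 CPM in KO cells and 6068 ± 154.5 CPM in WT cells after 24 h of Dex, against 5980 ± 98.1 and 5911 ± 97.8 CPM with vehicle (SD, n = 3 each), and the sum was not tested. Within that total, Dex changed individual genes in both directions. Over both genotypes, with 6 Dex and 6 vehicle libraries at each time, 8 Rab genes changed at 2 h (4 higher, 4 lower), when 14.5% of all genes did (8.12% higher, 6.41% lower). At 8 h 26 changed (16 higher, 10 lower; 52.2% of all genes, 27.5% higher and 24.7% lower). At 24 h 22 changed (14 higher, 8 lower; 53.6% of all genes, 26.8% in each direction). Calls are at an adjusted p under 0.05 by edgeR's quasi-likelihood test, adjusted over 11160 genes. The shares of 48 were near these backgrounds at each time, and the median absolute log2 change was 0.075, 0.191 and 0.144 for the Rab genes against 0.081, 0.212 and 0.214 for all genes. In all, 37 Rab genes were called at 1 time or more, and 11 at none: Rab10, Rab11b, Rab12, Rab22a, Rab23, Rab28, Rab34, Rab36, Rab38, Rab39 and Rab6b. Rab14, Rab15 and Rab21 rose and Rab40c and Rab8b fell at all 3 times. Rab18 was the 1 gene called in both directions, with log2 changes of -0.14 ± 0.04 at 8 h and 0.10 ± 0.04 at 24 h (SE). The weakest calls did not outlast the loss of 1 library: of 12 fits that each left 1 out, the call was kept in 6 for Rab8b at 2 h, 7 for Rab19 and 8 for Rab33b at 8 h, and 5, 6 and 5 for Rab18, Rab35 and Rab40c at 24 h. Changes over 2-fold were made by 1, 4 and 3 Rab genes at 2, 8 and 24 h, among 248, 859 and 1097 genes in all. All 6 Dex libraries lay above all 6 vehicle libraries for 2, 12 and 11 Rab genes at these times, against 5.46, 20.3 and 13.9% of all genes. They lay below for 1 and 9 Rab genes at 2 and 8 h and no Rab gene at 24 h, against 3.51, 16.9 and 14.8%. Such separation, given for single genes below, was thus common in the table.

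**Figure D2:**
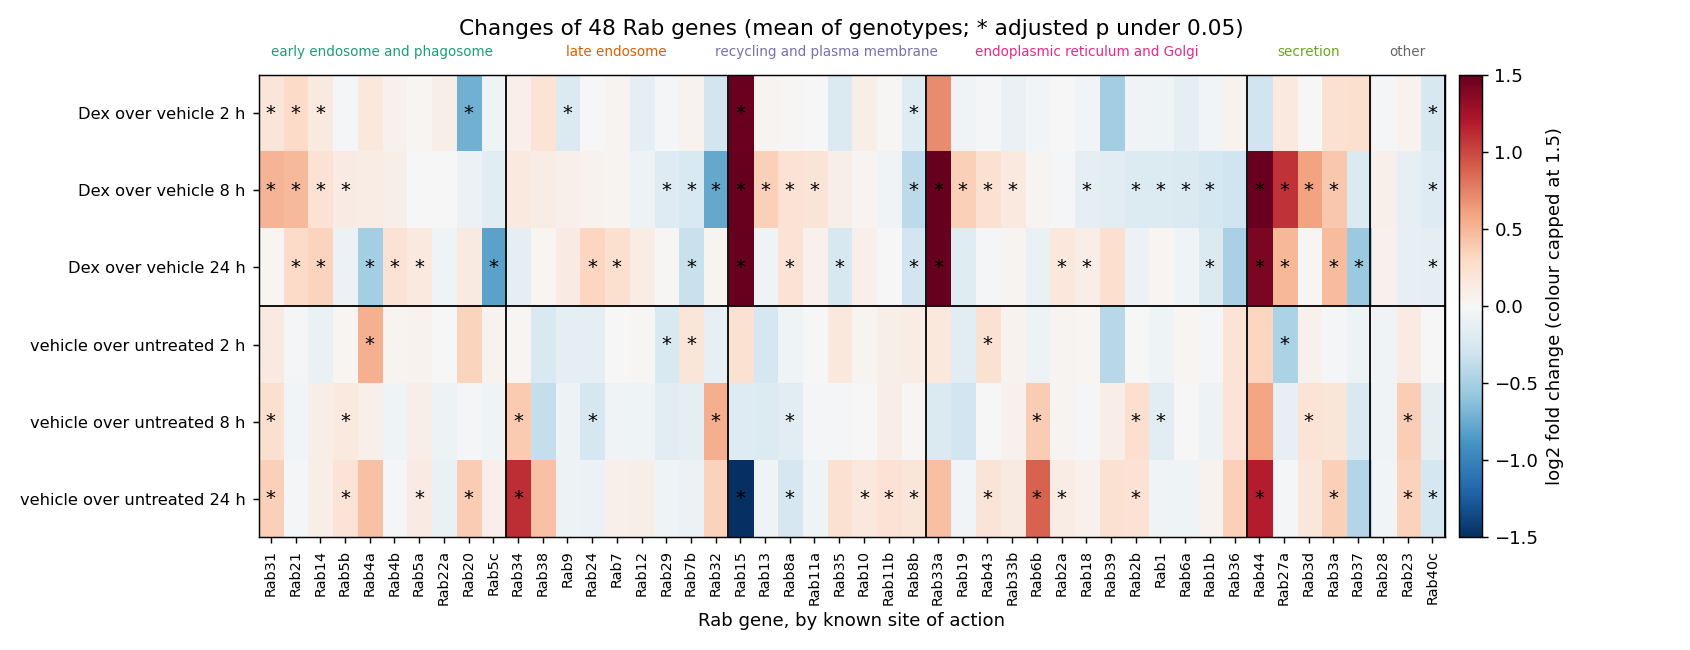
Heat map of log2 fold changes of the 48 Rab genes, grouped along the horizontal axis by known site of action; rows are Dex over vehicle and vehicle over untreated at 2, 8 and 24 h, as the mean of both genotypes. Red is higher and blue lower, colours are capped at 1.5 and asterisks mark an adjusted p under 0.05; Rab15 and Rab33a carry the strongest Dex colours, and Rab15 is blue in vehicle over untreated at 24 h.

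The Rabs of regulated secretion, which dock and release granules, had the highest median change of the role groups at 2, 8 and 24 h over both genotypes. In KO cells alone at 2 h their median of -0.142 was the lowest of the role groups. The ranking was not tested, and members and lists were chosen with earlier results of these data known. In this group Rab3a, Rab37 and Rab44 averaged under 5 CPM. None of the 5 (Rab3a, Rab3d, Rab27a, Rab37 and Rab44) was called at 2 h. At 8 h 4 rose and none fell, with a median log2 change of 0.607 against 0.0117 over all genes, of which 52.2% were called. At 24 h 3 rose and 1 fell, with a median of 0.470 against 0.00759 over all genes, of which 53.6% were called. At 24 h 1 of the 5 was called in KO cells alone and 3 in WT cells alone, all higher. Of all genes 38.1% were called in KO and 41.6% in WT cells alone, and counts in a set of this size were not tested.

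Rab27a, which tethers lytic granules and exosome-forming endosomes at the plasma membrane, lies on chromosome 9 (73044854 to 73097629, plus strand, GRCm38). At 8 h it had 9.62 to 12.1 CPM in the 3 KO Dex libraries and 9.37, 10.1 and 9.49 CPM in WT Dex libraries, against 5.20, 4.79 and 4.29 CPM with vehicle in KO cells and 4.17, 5.75 and 4.83 CPM with vehicle in WT cells. No Dex library overlapped a vehicle library. The log2 fold change was 1.08 ± 0.12 at 8 h (SE, edgeR adjusted p = 2.72e-09) and 0.50 ± 0.12 at 24 h (edgeR adjusted p = 0.000913), and 0.14 at 2 h, where it was not called. At 24 h the groups overlapped, with 3.88 to 9.88 CPM with Dex and 4.33 to 5.79 CPM with vehicle. In single genotypes the 24 h change was called in WT and not in KO cells.

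Rab3d, of secretory granule maturation, had 87.9, 81.4 and 84.7 CPM in KO Dex and 82.5, 77.0 and 84.8 CPM in WT Dex libraries at 8 h. Vehicle libraries of that time had 49.7, 58.1 and 53.2 CPM in KO and 51.7, 51.3 and 63.0 CPM in WT cells. The groups were apart at 8 h, with a log2 fold change of 0.61 ± 0.07 (edgeR adjusted p = 1.59e-08), and at 24 h the change was 0.01. Its paralog Rab3a, best known at neuronal synapses, was higher by 0.40 ± 0.12 at 8 h and 0.47 ± 0.12 at 24 h (edgeR adjusted p = 0.00638 and 0.0016) at a mean level under 5 CPM.

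Rab44 on chromosome 17 (29114145 to 29148980, plus strand) was counted with 8 to 146 reads per library, so its values carry wide errors. At 24 h it had 3.60, 2.05 and 2.81 CPM in KO Dex and 5.33, 3.56 and 3.47 CPM in WT Dex libraries, against 1.64, 1.84 and 0.861 CPM with vehicle in KO and 1.27, 0.710 and 1.44 CPM with vehicle in WT cells. All 6 Dex libraries were above all 6 vehicle libraries at 24 h and also at 8 h. Log2 fold changes were 1.48 ± 0.29 at 8 h and 1.41 ± 0.28 at 24 h (edgeR adjusted p = 6.48e-05 and 6.54e-05), and -0.30 at 2 h, not called. Values of Kit, the only mast cell marker in the table, are given above, and the part of mast cells in the Rab44 counts was not tested.

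Rab37, also of secretory granules, was lower by 0.56 ± 0.23 at 24 h (edgeR adjusted p = 0.0405) at about 1 CPM, with 0.735, 1.01 and 0.614 CPM in KO Dex and 1.39, 0.653 and 0.756 CPM in WT Dex libraries, and 1.38, 1.41 and 1.03 CPM in KO vehicle and 0.897, 1.99 and 0.846 CPM in WT vehicle libraries. The groups overlapped. The call was kept in 5 of 12 fits that left out 1 library, and was lost for example without WT vehicle 24 h replicate 2 (log2 -0.31, adjusted p = 0.261) and without KO vehicle 24 h replicate 2 (-0.53, adjusted p = 0.0762). Rab37 overlaps Cd300lf on the opposite strand, which was higher with Dex by 0.80, 1.35 and 1.28 at 2, 8 and 24 h, and the strand setting of the counting is not given in the sources used here.

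Among the 8 Rabs of recycling endosomes and the plasma membrane, Rab15 gave the largest change of any Rab gene at 2 h and, with Rab33a, at 8 h. Across the set 1 rose and 1 fell at 2 h, 4 rose and 1 fell at 8 h, and 2 rose and 2 fell at 24 h, with medians of 0.0163, 0.139 and 0.0363 on the log2 scale. The counts of 2, 5 and 4 of 8 lie near the 14.5, 52.2 and 53.6% of all genes called at these times.

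Rab15, known from work in neurons and cell lines as a Rab of early and recycling endosomes, lies on chromosome 12 (76797960 to 76822908, minus strand). At 2 h it had 14.04, 12.5 and 18.0 CPM in KO Dex and 20.5, 19.5 and 17.0 CPM in WT Dex libraries, against 4.86, 5.68 and 5.55 CPM in KO vehicle and 6.97, 6.25 and 7.14 CPM in WT vehicle libraries. At 8 h it had 20.96, 32.1 and 35.3 CPM in KO Dex and 27.6, 39.6 and 33.2 CPM in WT Dex libraries, against 3.32, 5.20 and 4.78 CPM in KO vehicle and 3.44, 5.25 and 4.90 CPM in WT vehicle libraries. At 24 h the levels were 4.70, 8.06 and 8.42 CPM in KO Dex and 9.56, 9.95 and 8.54 CPM in WT Dex libraries, against 1.08, 1.84 and 1.34 CPM in KO vehicle and 2.04, 1.56 and 1.49 CPM in WT vehicle libraries. Dex and vehicle libraries were apart at all 3 times. The log2 fold change was 1.48 ± 0.15 at 2 h, 2.81 ± 0.15 at 8 h and 2.36 ± 0.18 at 24 h (edgeR adjusted p = 8.47e-10, 4.98e-17 and 2.17e-13). Vehicle levels of Rab15 themselves fell to 1.08 to 2.04 CPM at 24 h, against 3.29 to 6.91 CPM in untreated cells, and the range with Dex at 24 h overlapped the untreated one. The gene overlaps Fntb on the opposite strand, whose own log2 changes with Dex were 0.18, 0.08 and -0.09 and not called.

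Rab8a and Rab8b, paralogs that act at macropinosomes and protrusions, had opposite calls for Dex over vehicle at 8 and 24 h. Rab8a was higher at 8 h by 0.21 ± 0.05 and at 24 h by 0.22 ± 0.05 (edgeR adjusted p = 0.000339 and 0.000276). Rab8b was lower by 0.18 ± 0.06, 0.40 ± 0.06 and 0.28 ± 0.06 on the log2 scale at 2, 8 and 24 h (edgeR adjusted p = 0.0222, 3.19e-07 and 6.43e-05), and had 557 to 601 CPM with Dex and 724 to 798 CPM with vehicle at 8 h. Vehicle levels of both genes had themselves changed. In vehicle over untreated cells Rab8a was called lower at 8 and 24 h, and Rab8b was called higher at 24 h. Rab11a and Rab13, which return receptors to the surface and serve junctional traffic, were higher at 8 h by 0.19 ± 0.05 and 0.36 ± 0.11, and Rab35, of fast endocytic recycling, was lower at 24 h by 0.24 ± 0.10. Rab10 and Rab11b were called at no time.

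Of the 10 Rabs of early endosomes and phagosomes, 3 rose and 1 fell at 2 h, 4 rose and 0 fell at 8 h, and 4 rose and 2 fell at 24 h, with medians of 0.0782, 0.101 and 0.0876 on the log2 scale. Of all genes 14.5, 52.2 and 53.6% were called at these times, and the balance of directions was not tested. Rab14, which keeps phagosomes at an early stage, was higher by 0.15 ± 0.04, 0.21 ± 0.04 and 0.34 ± 0.04 at 2, 8 and 24 h, and its 24 h levels of 580.3 to 679 CPM with Dex were above the vehicle levels of 461 to 530.2 CPM. Rab21, of integrin traffic, was higher by 0.29 ± 0.04, 0.49 ± 0.04 and 0.28 ± 0.04, with no overlap at any of the 3 times. At 8 h Rab21 had 120.3, 133 and 128 CPM in KO Dex and 129, 128 and 125 CPM in WT Dex libraries, against 89.3, 93.8 and 89.6 CPM in KO vehicle and 91.2, 92.4 and 88.1 CPM in WT vehicle libraries.

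Rab31, of transport between the trans-Golgi network, endosomes and macrophage phagosomes, lies on chromosome 17 (65651729 to 65772752, minus strand). At 8 h it had 429, 465 and 484 CPM in KO Dex and 479.6, 441 and 487 CPM in WT Dex libraries. Vehicle libraries had 296, 322 and 334 CPM in KO and 333, 318 and 351 CPM in WT cells, without overlap. The log2 fold change was 0.51 ± 0.06 (edgeR adjusted p = 1.84e-08), against 0.18 ± 0.06 at 2 h (edgeR adjusted p = 0.0432), where the call was kept in 4 of 12 fits that left out 1 library.

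Rab20, which promotes phagosome maturation, was lower at 2 h only among the 3 times tested. It had 14.3, 15.3 and 10.1 CPM in KO Dex and 12.9, 15.8 and 10.8 CPM in WT Dex libraries at 2 h, against 25.8, 20.2 and 17.1 CPM in KO vehicle and 27.7, 21.1 and 18.7 CPM in WT vehicle libraries. The groups did not overlap, and Rab20 fell by 0.72 ± 0.14 on the log2 scale (edgeR adjusted p = 0.000182). At 8 and 24 h the log2 changes were -0.08 and 0.14, not called. Replicate 3 held the lowest of the 3 Rab20 values in 14 of 14 groups.

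Rab5c, one of the 3 Rab5 genes that drive early endosome fusion, was lower at 24 h by 0.81 ± 0.19 (edgeR adjusted p = 0.000472). It had 30.04, 23.4 and 25.4 CPM in KO Dex and 43.6, 39.5 and 31.8 CPM in WT Dex libraries, against 33.7, 47.0 and 68.4 CPM in KO vehicle and 57.6, 61.3 and 66.7 CPM in WT vehicle libraries. The lowest vehicle library lay among the Dex libraries, so the groups overlapped. Rab5a was higher by 0.15 ± 0.04 at 24 h, and Rab5b by 0.12 ± 0.05 at 8 h, a call kept in 4 of 12 fits that left out 1 library and not made by DESeq2. Rab4a, of fast recycling from early endosomes, had 2.53, 3.73 and 3.29 CPM in KO Dex and 4.34, 3.46 and 2.54 CPM in WT Dex libraries at 24 h, and 4.62, 4.74 and 4.39 CPM in KO vehicle and 6.16, 5.32 and 2.94 CPM in WT vehicle libraries. With overlapping groups it was lower by 0.51 ± 0.17 (edgeR adjusted p = 0.0133), and the call was lost without WT vehicle 24 h replicate 1 (adjusted p = 0.0624). Rab4a overlaps Gm20388 on the same strand, which averaged 54.8 CPM where Rab4a averaged 4.27 CPM. The log2 changes of Gm20388 with Dex were 0.05, 0.17 and 0.11 at 2, 8 and 24 h and not called. How reads were divided between the 2 genes was not tested. Rab4b was higher by 0.21 ± 0.05 at 24 h, and Rab22a was called at no time.

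Of the 9 Rabs of late endosomes, lysosomes and related organelles, 1 fell at 2 h, 3 fell at 8 h, and 2 rose and 1 fell at 24 h, with medians of 0.000998, 0.0390 and 0.0363 on the log2 scale, when 14.5, 52.2 and 53.6% of all genes were called. Rab32, which serves lysosome-related organelles and mitochondria, lies on chromosome 10 (10545002 to 10558265, minus strand). At 8 h it had 123, 130.5 and 121 CPM in KO Dex and 110.2, 118 and 137 CPM in WT Dex libraries, against 211, 210.3 and 209 CPM in KO vehicle and 205, 209.8 and 213 CPM in WT vehicle libraries. Every Dex library was lower. Rab32 fell by 0.76 ± 0.14 on the log2 scale (edgeR adjusted p = 2.78e-05), and the log2 change was 0.04 at 24 h and -0.28 ± 0.14 at 2 h (edgeR adjusted p = 0.253). Replicate 1 was the lowest of the 3 for Rab32 in 12 of 14 groups, with 132 CPM in KO vehicle and 109 CPM in WT vehicle at 24 h where the other vehicle libraries had 201 to 224 CPM.

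Rab7 and Rab7b had opposite calls at 24 h. Rab7 had 642, 712 and 660.4 CPM in KO Dex and 652, 707 and 636 CPM in WT Dex libraries, all above the 538 to 614 CPM with vehicle, and was higher by 0.24 ± 0.04 (edgeR adjusted p = 2.73e-06). Rab7b, which moves cargo from late endosomes to the trans-Golgi network and is known in macrophages for the degradation of Toll-like receptors, had 313, 319 and 321 CPM in KO Dex and 238, 268 and 259 CPM in WT Dex libraries, and 399, 356 and 377 CPM in KO vehicle and 373, 343 and 305 CPM in WT vehicle libraries. It was lower by 0.33 ± 0.05 (edgeR adjusted p = 2.2e-06), although the lowest vehicle library lay below the highest Dex libraries. Rab24, tied to autophagy, was higher at 24 h by 0.33 ± 0.07. Rab9, of late endosome to Golgi return, was lower at 2 h by 0.22 ± 0.06, and Rab29, which binds the kinase Lrrk2, was lower at 8 h by 0.19 ± 0.06. Rab12, Rab34 and Rab38 were called at no time.

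Of the 13 Rabs of the endoplasmic reticulum and Golgi, none was called at 2 h, 4 rose and 5 fell at 8 h, and 3 rose and 1 fell at 24 h, with medians of -0.0456, -0.140 and -0.0201 on the log2 scale. Of all genes 14.5% were called at 2 h, 52.2% at 8 h (27.5% higher, 24.7% lower) and 53.6% at 24 h. The 5 that fell at 8 h were Rab1, Rab1b, Rab2b, Rab6a and Rab18, which serve transport into, within and back from the Golgi and, for Rab18, lipid droplets. Rab1 fell by 0.20 ± 0.04, Rab1b by 0.26 ± 0.06, Rab2b by 0.20 ± 0.06 and Rab6a by 0.21 ± 0.05. At 24 h only Rab1b of these was lower, by 0.22 ± 0.06, while Rab2a was higher by 0.16 ± 0.04.

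Rab33a was among the members of this group that rose at 8 h. It lies on the X chromosome (48519285 to 48530232, plus strand) and was counted with 2 to 78 reads per library. At 8 h it had 1.67, 1.53 and 1.84 CPM in KO Dex and 2.64, 1.90 and 1.53 CPM in WT Dex libraries, against 0.420, 0.151 and 0.244 CPM in KO vehicle and 0.252, 0.201 and 0.284 CPM in WT vehicle libraries. At 24 h it had 2.497, 2.57 and 2.24 CPM in KO Dex and 2.85, 2.35 and 2.05 CPM in WT Dex libraries, against 0.410, 0.601 and 0.215 CPM in KO vehicle and 0.681, 0.284 and 0.199 CPM in WT vehicle libraries. No Dex library overlapped a vehicle library at either time. Log2 fold changes were 2.81 ± 0.29 at 8 h and 2.54 ± 0.27 at 24 h (edgeR adjusted p = 6.12e-10 and 1.04e-09), and 0.70 at 2 h, not called. The other members that rose at 8 h were Rab19 by 0.35 ± 0.13, Rab43 by 0.23 ± 0.07 and Rab33b by 0.15 ± 0.05, and Rab36, Rab39 and Rab6b were called at no time. Of the 3 remaining genes, Rab40c, which belongs to a ubiquitin ligase, fell at all 3 times by 0.24 ± 0.06, 0.19 ± 0.07 and 0.15 ± 0.07, and Rab23, of Hedgehog signalling, and Rab28, of cilia, were not called.

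**Figure D3:**
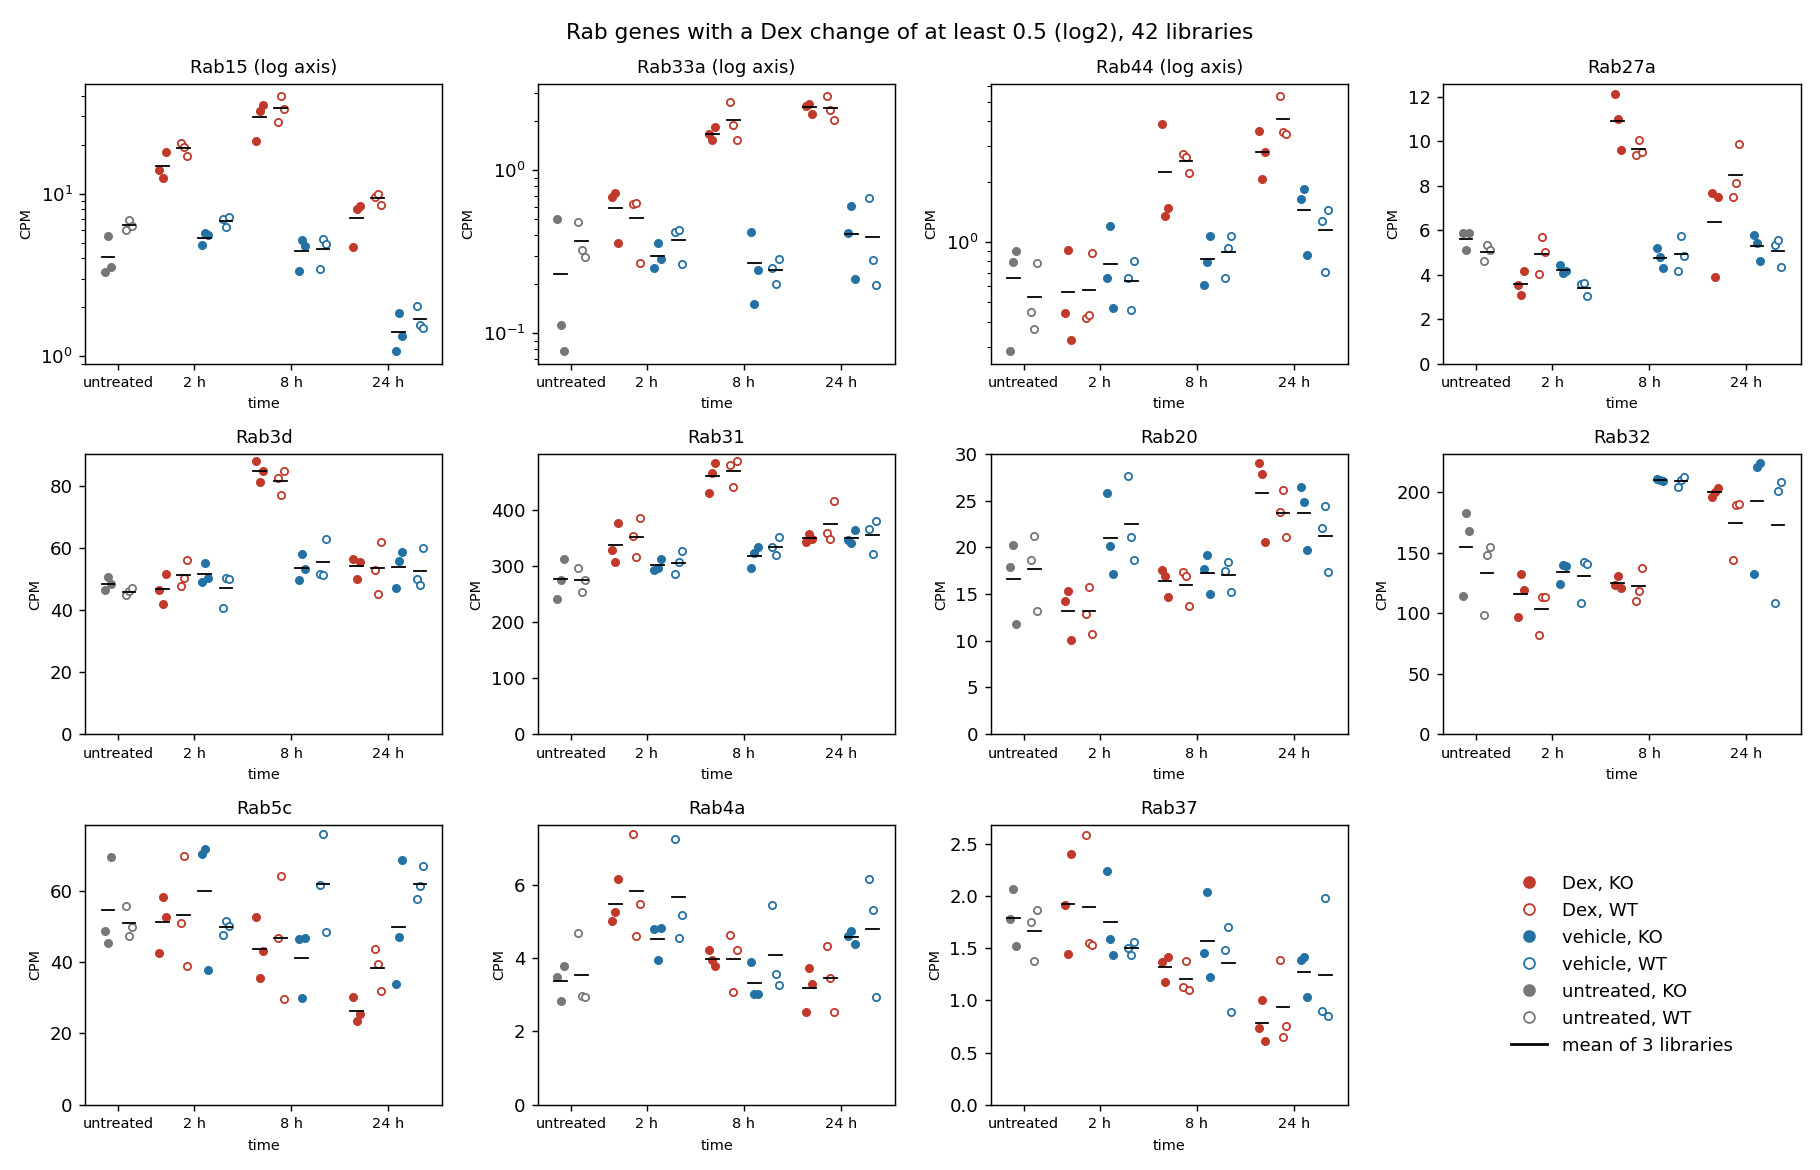
CPM in each of the 42 libraries for the 11 Rab genes with a called Dex change of at least 0.5 on the log2 scale; KO libraries are filled and WT libraries open, Dex is red, vehicle blue and untreated grey, and bars are group means. Rab15, Rab33a and Rab44 are on log axes; Rab15 at 8 h runs from 20.96 to 39.6 CPM with Dex and 3.32 to 5.25 CPM with vehicle, and Rab20 differs only at 2 h.

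Paralogs of the same number were compared with each other. For 12 pairs the log2 ratio of both genes was taken within each library, with 0.5 CPM added to each gene. Scaling between libraries then cancels only for levels well above 0.5 CPM. Dex was compared with vehicle within genotype by an exact permutation test (two-sided, 400 arrangements, smallest possible p = 0.005). This test was chosen after the values had been seen, and its p-values are adjusted over 36 ratios. The ratio differed for 1 pair at 2 h, 5 at 8 h and 9 at 24 h, 9 of the 12 pairs in all. Since 52.2 and 53.6% of all genes changed at 8 and 24 h and no other gene pairs were tested, the count shows nothing particular to paralogs. Rab8a gained on Rab8b by 0.61 at 8 h and 0.50 at 24 h (exact p = 0.005, adjusted 0.02 at both times), with no overlap between groups, while the summed CPM of both was 895.5 ± 66.6 with Dex and 1019 ± 25.04 with vehicle at 24 h (SD, n = 6 each). Rab7 gained on Rab7b by 0.27 and 0.57 (exact p = 0.005, adjusted 0.02), and their sum was 954.7 ± 54.1 with Dex and 925.6 ± 41.7 CPM with vehicle at 24 h. Against Rab5c, Rab5a gained 0.92 and Rab5b 0.69 at 24 h (exact p = 0.005, adjusted 0.02 for both). Rab33a gained 1.48 and 1.68 on Rab33b at 8 and 24 h (exact p = 0.005, adjusted 0.02). With vehicle Rab33a averaged 0.259 and 0.398 CPM at these times, below the 0.5 CPM added, which shrinks both gains. By edgeR its own log2 changes were 2.81 and 2.54, so the 2 gains do not show a rise with time. Rab4a lost 0.65 on Rab4b at 24 h (exact p = 0.01, adjusted 0.0327), a call lost when any of 7 libraries was left out. Estimated counts divide reads that fit both paralogs, or both Rab4a and the overlapping Gm20388. An error of that division would enter such ratios, and this was not tested.

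By edgeR no Rab gene was called between genotypes. In untreated and in 24 h vehicle cells 0 genes of the table were called, so Ms4a4a, the targeted gene, was not called there either. The absence of Rab calls within a condition therefore does not show equal levels. Over the 4 conditions without Dex, 0 of 48 were called in KO over WT by edgeR, 1 at an unadjusted p under 0.05, and 0.188% of all genes were called. The lowest was Rab15 at -0.32 ± 0.12 (SE, edgeR adjusted p = 0.449) and the highest Rab44 at 0.25, and all 48 intervals of 95% lay within 2-fold, 46 of them within 1.5-fold. The fit counts the 12 libraries per genotype as independent, although the 4 conditions share replicate numbers. What a replicate number marks is not given in the labels, so the width of these intervals is uncertain. Within each of the 7 conditions edgeR called 0 Rab genes, with 0 to 5 at an unadjusted p under 0.05, against backgrounds of 0, 0.00896, 0.00896 and 0% of all genes in untreated and 2, 8 and 24 h vehicle cells and 0, 0 and 0.0448% in 2, 8 and 24 h Dex cells. The nearest was Rab7b with Dex at 24 h, higher in KO in all 3 libraries by 0.32 ± 0.07 (edgeR adjusted p = 0.118), which DESeq2 and the fit with a replicate block each called. Of all genes DESeq2 called 25 and the block fit 18 in that condition, against 5 by edgeR. Same-numbered libraries did not all deviate together there.

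Dex effects were also compared between genotypes. In KO cells alone 5, 18 and 13 Rab genes changed at 2, 8 and 24 h (10.4, 38.4 and 38.1% of all genes), and in WT cells 4, 17 and 16 (8.94, 37.0 and 41.6% of all genes). Where same-numbered replicates deviated together, a fit with the replicate as a block called 6 in KO cells at 2 h (adding Rab40c), 22 in KO cells at 8 h (adding Rab13, Rab19, Rab1b and Rab43), and 18 in WT cells at each of 8 and 24 h. More genes of all 11160 were called by that fit too. They were 1448 and 4794 in KO cells at 2 and 8 h, against 1162 and 4290 without the block. In WT cells at 8 and 24 h they were 4640 and 5169, against 4125 and 4637. The difference of the effects, KO minus WT, was called for 0 of 48 at each time by edgeR, as for 0% of all genes, with 7, 0 and 1 at an unadjusted p under 0.05 (8, 0 and 1 by DESeq2). Its 95% interval lay within 2-fold for 40, 42 and 43 of the 48 genes at 2, 8 and 24 h, and Rab33a, Rab36, Rab38 and Rab44, all under 5 CPM on average, were outside at each time. Rab15 rose by 1.47 ± 0.21 in KO cells and 1.49 ± 0.21 in WT cells at 2 h, 2.73 ± 0.22 and 2.89 ± 0.22 at 8 h, and 2.28 ± 0.26 and 2.44 ± 0.24 at 24 h. The widest gaps were for Rab27a at 2 h, with -0.23 ± 0.18 in KO and 0.52 ± 0.18 in WT cells (difference -0.75 ± 0.26, edgeR adjusted p = 0.547), and Rab44 at 24 h, with 0.96 ± 0.40 in KO and 1.87 ± 0.40 in WT cells (difference -0.91 ± 0.56, edgeR adjusted p = 0.894).

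**Figure D4:**
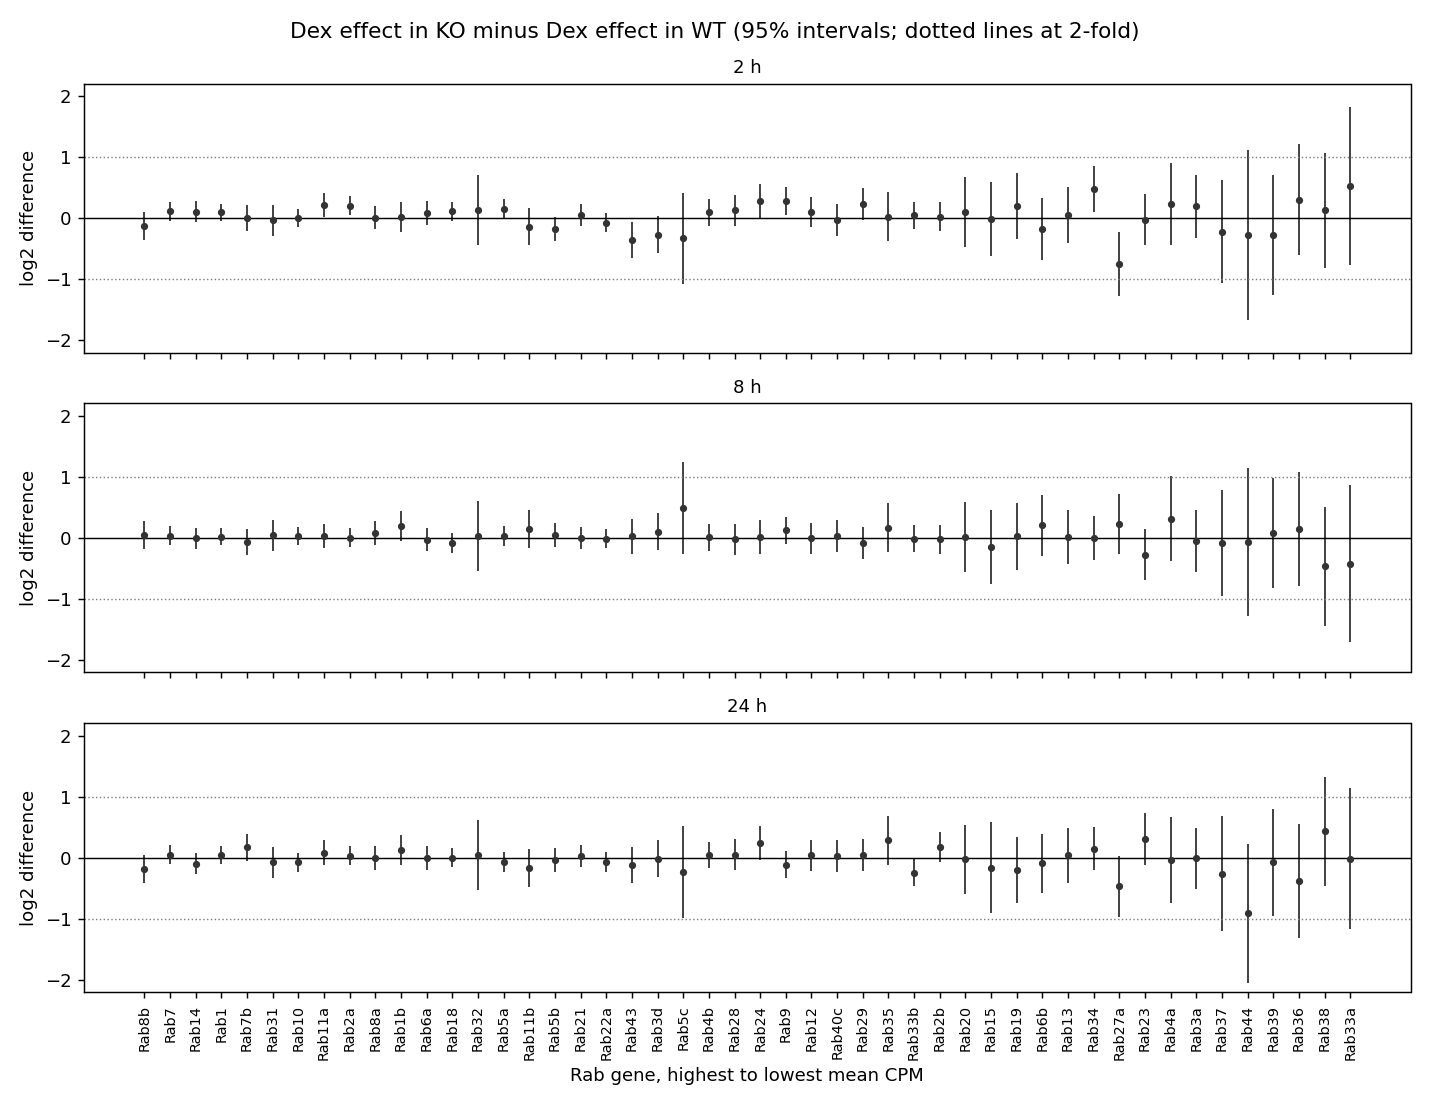
Dex effect in KO minus Dex effect in WT (log2) for each of the 48 Rab genes at 2, 8 and 24 h, ordered from highest to lowest mean CPM. Points are estimates, bars 95% intervals and dotted lines 2-fold; no difference was called, and intervals widen towards the genes of low level at the right.

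Vehicle cells also differed from untreated ones, more with time. By edgeR 5 Rab genes changed at 2 h (13.7% of all genes), 11 at 8 h (18.1%) and 18 at 24 h (15 higher and 3 lower, against 15.5% higher and 15.4% lower of all genes, 30.9% in both directions). These comparisons share their vehicle libraries with Dex over vehicle. Rab34, which positions lysosomes, had 11.8, 11.4 and 10.7 CPM in KO vehicle and 11.6, 11.1 and 11.4 CPM in WT vehicle libraries at 24 h, against 4.82, 5.54 and 4.92 CPM in untreated KO and 6.03, 5.41 and 4.82 CPM in untreated WT libraries. The groups were apart and the log2 fold change was 1.10 ± 0.09 (edgeR adjusted p = 1.32e-11), with no call for Dex at any time. Rab6b, the less abundant Rab6 gene, was likewise higher by 0.89 ± 0.12 (edgeR adjusted p = 8.33e-07) and not called for Dex. Rab15 fell by 1.70 ± 0.18 on the log2 scale (edgeR adjusted p = 5.34e-09), Rab44 was higher by 1.18 ± 0.34 (edgeR adjusted p = 0.00711), and Rab31, Rab8a and Rab20 had 0.36 ± 0.06, -0.25 ± 0.05 and 0.38 ± 0.14, the last kept in 5 of 12 fits that left out 1 library. Without KO vehicle 24 h replicate 2, 12 in place of 18 Rab genes were called. Over all genes 1531 were then higher and 1490 lower, in place of 1733 and 1715. At 8 h Rab32 was higher with vehicle by 0.54 ± 0.14 (edgeR adjusted p = 0.00577).

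Without that library, 2795 genes were called higher and 3002 lower of all 11160 for Dex at 24 h, in place of 2988 and 2992. Of the Rab genes, 21 in place of 22 were called. The call lost was that of Rab37, and the secretion group then held 3 higher and 0 lower of 5 with a median of 0.499, while the counts of the other role groups were as with it. The log2 fold change was then 2.48 for Rab15, 2.75 for Rab33a, 1.52 for Rab44, 0.50 for Rab27a, 0.24 for Rab7, -0.36 for Rab7b, -0.84 for Rab5c and -0.51 for Rab4a. KO cells alone had 14 in place of 13 calls at 24 h, the added one being Rab44 at 1.18 ± 0.47 (edgeR adjusted p = 0.0478). Of all genes 1830 were then higher and 2171 lower in KO cells alone, against 4247 called with that library. The Dex effect KO minus WT gave 0 calls with and without it. Of the 9 paralog ratios called at 24 h, 7 were kept, and Rab1 over Rab1b and Rab4a over Rab4b were lost (exact permutation, adjusted p = 0.0529 and 0.0514).

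The regulators and partners of Rabs changed in both directions too, at times when 14.5, 52.2 and 53.6% of all genes were called. Of 13 genes of the core cycle, which prenylate Rabs and extract them from membranes, 0 changed at 2 h, 2 rose and 7 fell at 8 h, and 2 rose and 3 fell at 24 h. Rabac1, a prenylated Rab acceptor, was higher by 0.41 ± 0.08 at 24 h and Chml, a Rab escort protein, was lower by 0.45 ± 0.13. Of 33 GEFs, 6 rose and 3 fell at 2 h, 9 rose and 8 fell at 8 h, and 9 rose and 7 fell at 24 h. Rin3, a GEF of the Rab5 group, was higher by 1.59 ± 0.10 and Dennd4a, a GEF of Rab10, by 1.39 ± 0.14 at 24 h, and Dennd2c, a GEF of Rab9, was lower by 1.37 ± 0.14. Of 36 GAPs, 6 rose and 0 fell at 2 h, 10 rose and 9 fell at 8 h, and 10 rose and 11 fell at 24 h, with Tbc1d30 and Tbc1d14 higher at 24 h by 1.35 ± 0.30 and 1.06 ± 0.07 and Tbc1d1 lower by 0.87 ± 0.09.

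Of 41 effectors, 3 rose and 6 fell at 2 h, 7 rose and 13 fell at 8 h, and 4 rose and 16 fell at 24 h, when their median log2 change was -0.114. At 24 h 1 rose and 11 fell in KO cells alone, where 38.1% of all genes were called. In WT cells alone 4 rose and 5 fell, where 41.6% of all genes were called, and the difference was not tested. Without KO vehicle 24 h replicate 2 the counts over both genotypes were 4 and 14. Mical1 and Micall2, which bind Rab8-group and related Rabs at membranes, were lower at 24 h by 0.93 ± 0.11 and 0.91 ± 0.10, and Rab11fip4, Optn and Lrrk2 by 0.76 ± 0.21, 0.56 ± 0.05 and 0.49 ± 0.13. Of 10 genes of the HOPS and CORVET complexes, which tether Rab7 and Rab5 membranes before fusion, and of the related pair Vps33b and Vipas39, 0 changed at 2 h, 1 rose and 5 fell at 8 h, and 0 rose and 6 fell at 24 h, with a median of -0.185 (0 and 5 without that library). Vps33a, of HOPS and CORVET, was lower at 24 h by 0.27 ± 0.06. Vipas39, which forms a complex of its own with Vps33b, was lower by 0.99 ± 0.07. Of 9 exocyst genes 1 rose and 4 fell at 8 h and 1 rose and 3 fell at 24 h, and of 4 retromer genes 2 fell at 8 h and 1 at 24 h.

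Genes whose group means over the 14 groups followed a Rab most closely are given as a description, since the groups share treatments. For Rab15 they were Cd300lf (r = 0.976), Zfp597 (0.972), Pmvk (0.965), Zc3hc1 (0.956) and S100a10 (0.955). For Rab32 they were Abi3 (0.960), Fam105a (0.911), Strn3 (0.910), Ahrr (0.910) and Dram1 (0.902). Rab20 was followed by Mylip (0.962), Spic (0.940), Nkiras1 (0.926), Nrbf2 (0.905) and Stx12 (0.884).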

How the data were processed

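RNA-seq libraries were made with the SMART-Seq mRNA kit, per the labels' protocols. The authors' deposited table holds one estimated count per gene and library; the submitters' processing notes name fastp, HISAT2, Salmon and GRCm38, and no versions. No source used here states the strand setting or the filter behind the 11160 genes; the lowest gene total was 256, and 69.5% of values lay within 0.01 of a whole number. Counts were rounded and tested with edgeR 4.0.16 (R 4.3.3; TMM scaling, robust quasi-likelihood fit of 14 group means, Benjamini-Hochberg adjustment over 11160 genes, adjusted p under 0.05). A filter on low counts removed 0 genes. CPM values are TMM-scaled, and levels per kb use GENCODE M21 transcripts. Gene coordinates are those of GRCm38. Depths of 10140200 to 33528400 counts leave the 8 members under 5 CPM with wide errors.

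Genes with every library's value printed were those called for Dex with a log2 fold change of at least 0.5, at most 12 of them; Rab7, Rab7b, Rab21 and Rab34 were added after their values were seen. Likeness was Pearson's r over 14 group means. Other genes of the pathway were named by the same calls at 24 h, at most 5 a list. The members and lists were chosen with earlier results of these data known. Whether replicate numbers pair libraries was judged from how deviations from group means correlated; every pair was over 0.1 in Dex over vehicle for WT at 8 h (lowest 0.294) and 24 h (0.256) and for KO at 2 h (0.122) and 8 h (0.111), and in KO over WT with vehicle (0.239, 0.229 and 0.227 at 2, 8 and 24 h) and with Dex at 2 h (0.254), and not elsewhere. Alternatives were DESeq2 1.42.0, a replicate block, only the libraries compared, other low-count filters and leaving out each library. The edgeR script was tested on simulated counts.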

Additional observations from a re-analysis of the deposited data

Results flagged for a closer look

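The Dex effect differed between times for several Rab genes, each tested as the difference of the effects at 2 times (edgeR, mean of genotypes, adjusted p under 0.05, log2 scale); no explanation was tested. Between 8 and 2 h 16 of 48 differed, when 30.9% of all genes did. The effect at 8 h exceeded that at 2 h by 2.11 for Rab33a, 1.78 for Rab44, 1.33 for Rab15 and 0.94 for Rab27a. Rab20, lower at 2 h and not called at 8 h, had a difference of 0.64, and Rab3d 0.61. Smaller differences were 0.33 for Rab31, 0.29 for Rab9, 0.25 for Rab33b, and 0.20 for each of Rab21, Rab11a and Rab8a. The differences were -0.14 for Rab1, -0.21 for Rab8b, -0.22 for Rab1b and -0.28 for Rab7b. Of 24 fits that each left out 1 library, the call was kept in 10 for Rab1b, 14 for Rab11a, 16 for Rab8a, 17 for Rab8b, 22 for each of Rab1 and Rab21, and in 24 for the others.

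Between 24 and 8 h 13 of 48 differed, when 25.8% of all genes did. Rab32, lower at 8 h and not called at 24 h, had a difference of 0.80, Rab24 0.28, Rab18 0.24, Rab1 0.23, Rab7 0.20 and Rab2a 0.17. The differences were -0.59 for each of Rab27a and Rab3d, -0.53 for Rab19, -0.48 for Rab31, -0.42 for Rab13, -0.21 for Rab5b and -0.20 for Rab21. Of 24 fits that each left out 1 library, the call was kept in 7 for Rab13, 12 for Rab19, 15 for Rab24, 23 for Rab5b and 24 for the others. Without KO vehicle 24 h replicate 2, 14 in place of 13 differed, the added one being Rab5a at 0.16. Of all genes 1093 were then higher and 1695 lower, against 2876 called with it. Rab15, Rab33a and Rab44 were not among these. Both differences use the libraries of 8 h, and the 2 sets are not independent.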

How the results depend on the processing

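DESeq2 called 8 of the 8, 25 of the 26 and 22 of the 22 Rab genes called for Dex at 2, 8 and 24 h. The fit with the replicate block called 10, 26 and 23, adding Rab32 and Rab6a at 2 h and Rab9 at 24 h. Same-numbered libraries did not all deviate together at 2 and 24 h. Of all 11160 genes the block fit called 1897, 6302 and 6429 at 2, 8 and 24 h, and DESeq2 called 1710, 5927 and 6022. The reported fit called 1621, 5825 and 5980. Of the counts, 109 stayed within 1.5 times the reported count under settings that kept all libraries and 7 moved; no value reversed. KO over WT within 7 conditions gave 1 call (Rab7b, Dex 24 h) with DESeq2 and 1 with the replicate block, in place of 0. Of all genes DESeq2 called 25 and the block fit 18 in that condition, in place of 5. With only the libraries compared in the fit, Dex gave 8 in place of 16 calls in WT at 24 h and 1 in place of 5 in KO at 2 h. Vehicle over untreated then gave 3, 6 and 9 in place of 5, 11 and 18. The spread is then estimated from fewer libraries. Counts over all genes are not given for this setting, and whether these losses are particular to Rab genes was not tested. Leaving out 1 library at a time gave 6 to 8, 23 to 26 and 18 to 24 calls for Dex at 2, 8 and 24 h, 2 to 7, 14 to 18 and 9 to 14 in KO and 3 to 4, 12 to 16 and 12 to 17 in WT cells. It gave 3 to 7, 5 to 12 and 12 to 19 for vehicle over untreated, 13 to 17 for 8 minus 2 h, 11 to 15 for 24 minus 8 h, and 0 to 0 for genotype and its interaction. The Dex count in KO at 2 h was 3 without KO Dex 2 h replicate 1 or 2 or KO vehicle 2 h replicate 3, and 2 without KO vehicle 2 h replicate 1. Vehicle over untreated gave 3 at 2 h without untreated KO replicate 1, untreated WT replicate 2 or 3, or KO vehicle 2 h replicate 3, and at 8 h 5 without untreated KO replicate 1 and 7 without WT vehicle 8 h replicate 3. The cause was not tested. With only the libraries compared, the pooled Dex calls of Rab31 at 2 h, Rab33b at 8 h, and Rab18, Rab35, Rab40c and Rab37 (adjusted p = 0.114) at 24 h were lost, and the ratios Rab5a over Rab5b at 8 h and Rab33a over Rab33b at 2 h lost theirs with a pseudocount of 0.1 CPM (exact permutation, adjusted p = 0.0514 and 0.0529). Depth limits the 8 Rab genes under 5 CPM.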
